A study of Mus musculus with 4 samples.

Results

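The clustered histone genes of mouse aortic smooth muscle cells were examined in RNA-seq libraries from mice that lost YAP and TAZ in smooth muscle and from wild-type mice. Members were all genes of the deposited table whose name begins with Hist1h, Hist2h, Hist3h or Hist4h, which gave 70 of 39179 genes. They comprised 6 H1, 20 H2A, 19 H2B, 12 H3 and 13 H4 genes, with 56 members in the Hist1 cluster, 10 in Hist2, 3 in Hist3 and 1 in Hist4. The KO group (2 libraries) was primary aortic smooth muscle cells of Sm-Yap/Taz-KO mice, in which the genes of the Hippo pathway co-activators YAP and TAZ are inactivated in smooth muscle. The WT group (2 libraries) was the same cell type from wild-type mice, and cells of both groups were taken 18 days after tamoxifen. No source used here gives the Cre driver, the strain, the age or any pooling of animals. Nothing states that both libraries of a genotype come from separate mice, so the p-values reflect the spread among these 4 libraries, which may be technical.

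Histones package DNA: pairs of H2A, H2B, H3 and H4 form the core of the nucleosome, and H1 linker histones bind the DNA that enters and leaves it. Most clustered histone genes are replication-dependent, which means that their mRNA is made in large amounts only while DNA is copied in S phase. These mRNAs end in a conserved stem-loop bound by the protein SLBP in place of a poly(A) tail. Replication-independent variants such as H3.3 and H2A.Z are encoded elsewhere and carry ordinary polyadenylated mRNAs. Some clustered genes, HIST1H1C and HIST2H2BE of human cells among them, are also known to give polyadenylated mRNA in cells that have left the cycle. The libraries were made from total RNA depleted of ribosomal RNA, so mRNAs without a tail could be captured.

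The 4 libraries held normalized read counts that summed to between 13279332 and 13861333 in KO and between 14235444 and 14519178 in WT. An estimate from the uneven spacing of the rounded values gave 12300000 and 11810000 gene-assigned reads in KO and 15620000 and 16810000 in WT. The correlation of observed and fitted spacing was 0.643 to 0.856, so these depths are approximate; by them the KO libraries were the shallower. Yap1 stood at 947 and 962 in KO, against 1966 and 1877 in WT (limma adjusted p = 0.0080), and Wwtr1, the gene of TAZ, at 2848 and 2466 in KO, against 3423 and 4016 in WT (limma adjusted p = 0.055). Of 10 smooth muscle markers 8 fell, with summed counts of 198456 and 151390 in KO and 485418 and 455808 in WT. Of 20 macrophage markers 19 rose, with sums of 17629 and 24921 in KO and 1638 and 4483 in WT. Of the other markers, 9 of 12 adipocyte, 7 of 15 endothelial and 2 of 11 fibroblast genes rose and none fell. Over all tested genes 9.58% were called higher and 6.7% lower. T and B cell genes had sums of 75 and 115 in KO and 20 and 24 in WT, and neither of the 2 that were tested passed (median log2 change 2.19). The part of these other cells in the histone results was not tested. In bulk samples, fewer cells of a type and less RNA per cell cannot be told apart.

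Which members carry the mark of replication-dependent mRNA was read from their annotated transcripts. Of the 63 members with a transcript in GENCODE M21 (GRCm38), 35 held the 16-base histone stem-loop without a mismatch and 6 with 1 mismatch, while 9 of 55387 other genes (0.0162%) held it without a mismatch. The other 22 members held no loop in their annotated transcripts. Such a transcript can stop short of the loop, but Hist2h2be and Hist1h2bc lacked it with 2620 and 1156 annotated exon bases. Whether these genes hold a loop outside the annotation was not tested, so its absence is not read as a trait of the gene. The following loops, with 5 flanking bases on each side and the loop in capitals, show forms found among tested members. They are written as DNA, as in the GENCODE transcripts.
Hist1h1d: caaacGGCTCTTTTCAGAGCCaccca
Hist1h2ab: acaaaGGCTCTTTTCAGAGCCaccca
Hist1h3e: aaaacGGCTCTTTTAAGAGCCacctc
Hist1h4c: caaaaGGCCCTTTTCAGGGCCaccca
Hist2h2ac: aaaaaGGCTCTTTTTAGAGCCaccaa
Hist2h4: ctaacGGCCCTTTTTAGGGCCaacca
The form shown for Hist1h1d and Hist1h2ab was the commonest, in 23 members, and that of Hist1h4c was carried by 7 members, all of them H4 genes. The annotated transcript ran more than 200 bases past the loop in 15 members. These 15 included Hist1h1c, Hist1h1d, Hist1h1e and Hist2h4, and they held 56.9% of all histone counts. The members include the testis genes Hist1h1t, Hist1h2aa and Hist1h2ba. The table lists 2 members as pseudogenes, and M21 lists 3. Hist1h1t also held the loop without a mismatch, so the loop does not set the testis genes apart. Hist1h2aa and Hist1h2ba were at 0 throughout, and Hist1h1t had 5 and 1 normalized counts in KO and 0 and 0 in WT.

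Most of the measured histone mRNA came from a few genes. All 70 members together had 1883 and 2051 normalized counts in KO, against 1489 and 1600 in WT. Both KO sums lay above both WT sums, with a ratio of 1.27. Of the members, 13 were at 0 in all libraries, 36 were above 0 with a mean under 10, and 21 reached the mean of 10 needed to enter the test. The lowest of these 21 was Hist1h2af (mean 10.25), and the highest left out was Hist1h3c (mean 9.75). The 8 members with a mean of at least 50 held 79.5% of all histone counts. The most abundant was the linker histone gene Hist1h1c, followed by Hist1h1e, Hist2h2ac, Hist1h2bc and Hist2h2be. Per kilobase of annotated exon, averaged over the 4 libraries, Hist2h2ac led with 461 normalized counts, ahead of Hist1h1c with 229, Hist1h1e with 172 and Hist1h2bc with 146.

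**Figure D1:**
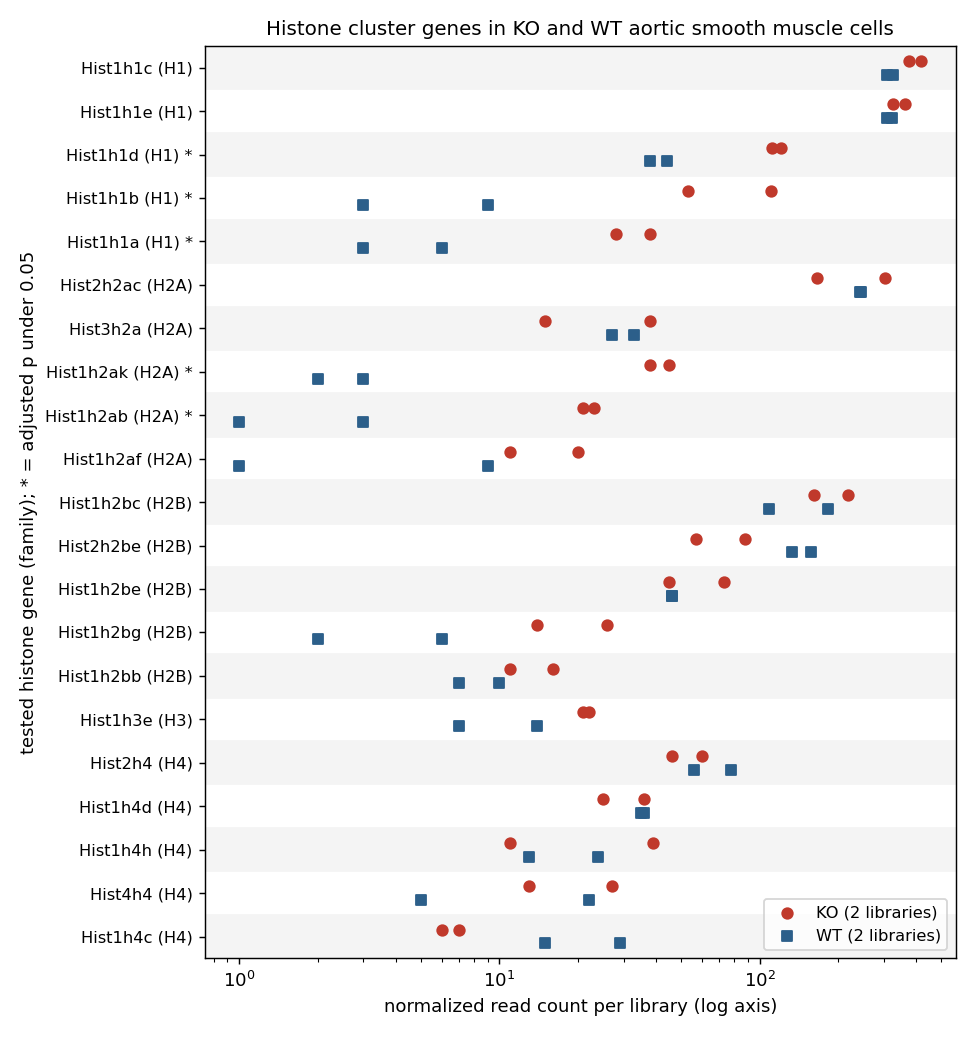
Normalized read counts of the 21 tested histone genes in each library (log axis), KO circles above WT squares, ordered by family and level; an asterisk marks an adjusted p under 0.05. For Hist1h1a, Hist1h1b, Hist1h1d, Hist1h2ab and Hist1h2ak the KO circles stand clear to the right, while those of abundant genes such as Hist1h1e (327 and 363 in KO, 324 and 310 in WT) lie close to the WT squares.

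The comparison of KO with WT asked which transcripts depend on YAP and TAZ. In the fit over all 15058 tested genes (limma on log2 of the value plus 1, threshold an adjusted p of 0.05), 5 of the 21 tested histone genes rose and 0 fell, beside 9.58% of all tested genes called higher and 6.7% called lower. The risers were 3 H1 genes and 2 H2A genes of the Hist1 cluster. The median log2 fold change of the 21 was 0.41, against -0.02 for all tested genes. Of the 21, 13 showed no overlap of KO and WT, 11 with KO above WT (30.7% of all tested genes) and 2 with KO below WT (32.1%). Of the 5 risers, 4 had a WT mean under 10 and so entered the test through their KO values. Of the 21 tested members, 7 had a WT mean under 10 and 1 had a KO mean under 10. The counts of risers and of members without overlap, and the median, therefore give no support for a shift of the family. All 5 calls were lost whichever single library was left out (smallest limma adjusted p 0.0587), and none passed without the filter on low counts (smallest 0.0931) or without the intensity trend (smallest 0.0643). Over the whole table, lists included, 0 genes were called without the filter, without the trend, or with KO replicate 1, KO replicate 2 or WT replicate 1 left out. At an unadjusted p under 0.05, 6 members were higher and 2 lower.

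**Figure D2:**
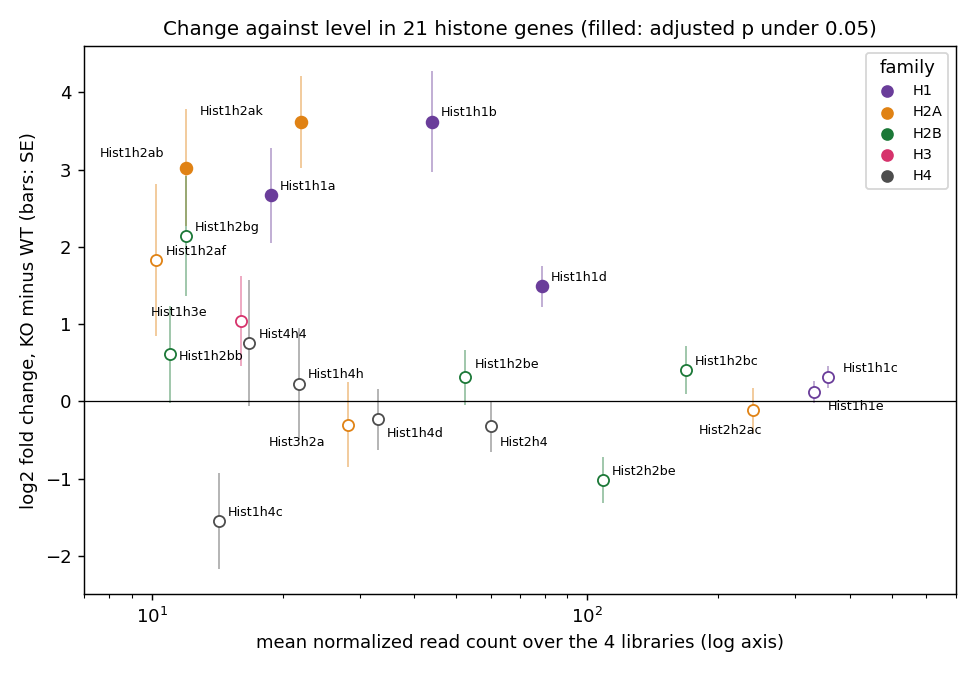
Log2 fold change (KO minus WT, bars SE) of the 21 tested histone genes against their mean normalized read count over the 4 libraries (log axis), coloured by family; filled points have an adjusted p under 0.05. The filled points lie at means between 12.0 and 78.8, and the 5 most abundant genes, from Hist2h2be (mean 109) to Hist1h1c (mean 358), are all open.

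The H1 linker histones varied widely in level and in change. All 5 somatic H1 genes of the Hist1 cluster were tested, on chromosome 13, and 3 of them rose. Hist1h1b (21779883 to 21780625, minus strand, GRCm38) had 53 and 111 normalized counts in KO, against 3 and 9 in WT. Both KO values were far above both WT values, and KO replicate 2 was the highest. The fitted change was 3.62 on the log2 scale (SE 0.66, limma adjusted p = 0.021). Its size rested on single libraries, at 2.96 without WT replicate 1, 3.09 without KO replicate 2, 4.15 without KO replicate 1 and 4.28 without WT replicate 2. Hist1h1a (23763666 to 23764406, plus strand) had 28 and 38 in KO, against 6 and 3 in WT, a change of 2.67 on the log2 scale (SE 0.61, limma adjusted p = 0.038). Its adjusted p was over the threshold after quantile normalization. Hist1h1d (23553262 to 23560686, plus strand) had 112 and 121 in KO, against 38 and 44 in WT. This was the tightest of the rises, with both groups narrow and a log2 change of 1.49 (SE 0.27, limma adjusted p = 0.021). Hist1h1d was the only riser with a mean over 50. Its annotated exons come to 7425 bases, and per kilobase it had the lowest mean of the risers. That mean was 10.6 normalized counts, against 25.3 for Hist1h1a and 59.2 for Hist1h1b.

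The abundant H1 genes did not pass the test. Hist1h1c (23738808 to 23740367, plus strand) had 419 and 374 in KO and 310 and 327 in WT (log2 change 0.31, SE 0.14, limma adjusted p = 0.196). Hist1h1e (23620629 to 23622558, minus strand) had 327 and 363 in KO and 324 and 310 in WT (log2 fold change 0.12, SE 0.15, limma adjusted p = 0.62). In both genes the KO values lay above the WT values, by little. In M21 the exons of Hist1h1e share 25.7% of their length with Hist1h2be and the pseudogene Gm11398 on the same strand, so reads there could be assigned to either or to none. Summed, the 6 H1 genes had 944 and 1008 in KO and 681 and 693 in WT. Without Hist1h1c and Hist1h1e the H1 sum was 198 and 271 in KO and 47 and 56 in WT, a ratio of 4.55, so the smaller H1 genes supplied most of the difference in the H1 sum. Reads of H1 genes were also the easiest to assign: between 68.0% and 100% of the 50-base words of each H1 transcript occurred in no other annotated gene.

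The promoters of the 5 somatic H1 genes are shown so that the risers can be set beside the abundant genes. Each line is the RefSeq window on GRCm38.p6 from 250 bases before to 50 bases after the annotated start, 5′ to 3′ on the gene's own strand. Capitals mark the motifs searched for on both strands. These were the CCAAT box, the TATA box written as TATAAA, the octamer ATTTGCAT, the H1 box AAACACA, and an E2F-type site as either TTTCGCGC or TTTGGCGC. No motif was found to overlap another in these 5 windows.
Hist1h1a, chr13:23763418-23763717, plus strand: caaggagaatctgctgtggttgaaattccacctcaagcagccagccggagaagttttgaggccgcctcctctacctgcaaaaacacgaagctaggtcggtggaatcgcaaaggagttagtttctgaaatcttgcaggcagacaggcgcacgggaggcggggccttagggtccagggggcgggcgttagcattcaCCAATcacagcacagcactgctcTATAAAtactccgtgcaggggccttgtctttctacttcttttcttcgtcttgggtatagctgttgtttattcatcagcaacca
Hist1h1b, chr13:21780576-21780875, minus strand: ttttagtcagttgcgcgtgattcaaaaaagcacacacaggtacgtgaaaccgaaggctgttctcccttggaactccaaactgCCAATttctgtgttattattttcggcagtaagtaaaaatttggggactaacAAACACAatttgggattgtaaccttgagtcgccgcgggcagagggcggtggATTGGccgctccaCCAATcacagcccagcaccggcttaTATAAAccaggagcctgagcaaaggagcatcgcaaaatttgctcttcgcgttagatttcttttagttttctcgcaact
Hist1h1d, chr13:23554782-23555081, plus strand: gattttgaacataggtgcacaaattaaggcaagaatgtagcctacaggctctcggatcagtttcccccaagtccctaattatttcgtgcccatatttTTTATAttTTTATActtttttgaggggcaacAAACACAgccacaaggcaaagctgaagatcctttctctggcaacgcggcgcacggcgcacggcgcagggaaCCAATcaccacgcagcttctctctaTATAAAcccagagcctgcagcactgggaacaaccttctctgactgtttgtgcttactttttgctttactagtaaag
Hist1h1c, chr13:23738557-23738856, plus strand: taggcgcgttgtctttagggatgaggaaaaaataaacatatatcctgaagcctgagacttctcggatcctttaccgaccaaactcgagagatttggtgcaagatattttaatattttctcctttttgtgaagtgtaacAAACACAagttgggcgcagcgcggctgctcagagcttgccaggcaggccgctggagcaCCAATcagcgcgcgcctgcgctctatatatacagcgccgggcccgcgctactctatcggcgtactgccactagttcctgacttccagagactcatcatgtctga
Hist1h1e, chr13:23622509-23622808, minus strand: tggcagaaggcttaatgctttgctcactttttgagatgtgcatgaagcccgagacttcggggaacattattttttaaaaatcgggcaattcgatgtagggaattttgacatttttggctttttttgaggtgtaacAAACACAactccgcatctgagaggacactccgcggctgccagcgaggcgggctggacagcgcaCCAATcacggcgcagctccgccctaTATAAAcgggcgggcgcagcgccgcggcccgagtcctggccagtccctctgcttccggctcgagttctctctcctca
CCAAT stood in all 5 windows and AAACACA in all but that of Hist1h1a. The exact hexamer TATAAA stood in all but that of Hist1h1c, which has the run tatatata after its CCAAT. Looser forms of the TATA box were not searched. No motif searched was present in Hist1h1a, Hist1h1b and Hist1h1d and absent from both Hist1h1c and Hist1h1e. Over the 61 members with a RefSeq window, CCAAT occurred in 52 (85.2%, against 37.4% of all 32851 windows) and TATAAA in 35 (57.4%, against 13.6%). AAACACA was in 9 member windows (14.8%, against 7.18% of all), of which 5 were the windows of H1 genes. ATTTGCAT occurred in 13 (21.3%, against 1.74% of all windows), 7 of H2A and 6 of H2B genes, and the E2F-type sites in 9 (14.8%, against 0.813%), 5 of H2A and 4 of H2B genes. Some H2A and H2B windows overlap, so these counts are not independent. Of the 9 windows with an E2F-type site 8 belong to 4 such pairs, which leaves 5 distinct sites, and the 13 with the octamer hold 10 distinct sites. H4 windows stood apart, with CCAAT in 3 of 12, while it was in every H1, H2A, H2B and H3 window. These matches describe the letters of the windows and show no binding.

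Among the H2A genes, core histones of the nucleosome, 2 of 5 tested members rose. The 20 H2A genes summed to 310 and 449 in KO and 291 and 303 in WT, a ratio of 1.28, with the gap between the KO libraries larger than that between the groups. Hist1h2ak (21753435 to 21753827, chromosome 13, minus strand) had 38 and 45 in KO, against 2 and 3 in WT. The KO libraries were close to each other and far above the WT libraries, a log2 change of 3.61 (SE 0.60, limma adjusted p = 0.017) with a 16.6-fold ratio of the sums. Hist1h2ab (23751126 to 23751598, plus strand) had 23 and 21 in KO, against 1 and 3 in WT (log2 fold change 3.02, SE 0.76, limma adjusted p = 0.047), a call that was lost with a pseudocount of 0.5 and after quantile normalization. Hist1h2af had 11 and 20 in KO and 1 and 9 in WT and did not pass (limma adjusted p = 0.26). Hist2h2ac, by far the most abundant H2A gene, had 167 and 303 in KO and 245 and 243 in WT, so the WT values lay between the KO values (log2 fold change -0.12, SE 0.29, limma adjusted p = 0.82). Hist3h2a, with 38 and 15 in KO and 33 and 27 in WT, overlapped likewise. A predicted gene on the opposite strand covers 29.2% of the exon of Hist1h2ab and 35.1% of that of Hist1h2ak, and without the strand setting of the counting its reads cannot be told apart from theirs. The share of 50-base words found in no other gene on either strand was 43.0% for Hist1h2ak and 42% for Hist1h2ab. Words shared with the opposite-strand genes are among those not counted as their own. The levels of Hist1h2ak and Hist1h2ab are uncertain to the extent that reads were shared with or lost to other genes.

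The H2B genes, partners of H2A in the nucleosome, gave no call. Hist2h2be (chromosome 3, 96221119 to 96223738, plus strand) had 88 and 57 in KO and 157 and 133 in WT, with both KO values under both WT values (log2 fold change -1.02, SE 0.29, limma adjusted p = 0.067). It was called lower after quantile normalization (limma adjusted p = 0.044). All 50-base words of its transcript were its own. Hist1h2bc had 218 and 162 in KO and 109 and 184 in WT, and Hist1h2be 73 and 45 in KO and 46 and 46 in WT; in both the groups overlapped. Hist1h2bg had 14 and 26 in KO and 2 and 6 in WT, which did not pass (log2 fold change 2.13, SE 0.78, limma adjusted p = 0.12). Hist1h2bb had 16 and 11 in KO and 7 and 10 in WT. The summed H2B counts were 416 and 341 in KO and 334 and 383 in WT, which overlap.

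Only 1 H3 gene entered the test. Hist1h3e had 21 and 22 in KO and 14 and 7 in WT (log2 fold change 1.04, SE 0.58, limma adjusted p = 0.27), so the groups were apart but the gene did not pass. The other H3 genes were each under a mean of 10. Together the 12 H3 genes had 54 and 83 in KO and 22 and 26 in WT, a ratio of 2.85, with both KO sums above both WT sums.

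The H4 genes gave no call. Hist1h4c had 6 and 7 in KO and 15 and 29 in WT, lower in both KO libraries (log2 fold change -1.55, SE 0.63, limma adjusted p = 0.15). Hist2h4 had 60 and 46 in KO and 78 and 56 in WT, Hist1h4d 36 and 25 in KO and 36 and 35 in WT. Hist1h4h had 11 and 39 in KO and 13 and 24 in WT, a log2 fold change of 0.23 that was -0.14 after quantile normalization and -0.64 without KO replicate 2 and -0.19 without WT replicate 1, and Hist4h4 had 27 and 13 in KO and 5 and 22 in WT. None of the 5 tested H4 genes passed, and in 4 of them the groups overlapped. The H4 sums of 159 and 170 in KO and 161 and 195 in WT lay close together, with a ratio of 0.924.

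**Figure D3:**
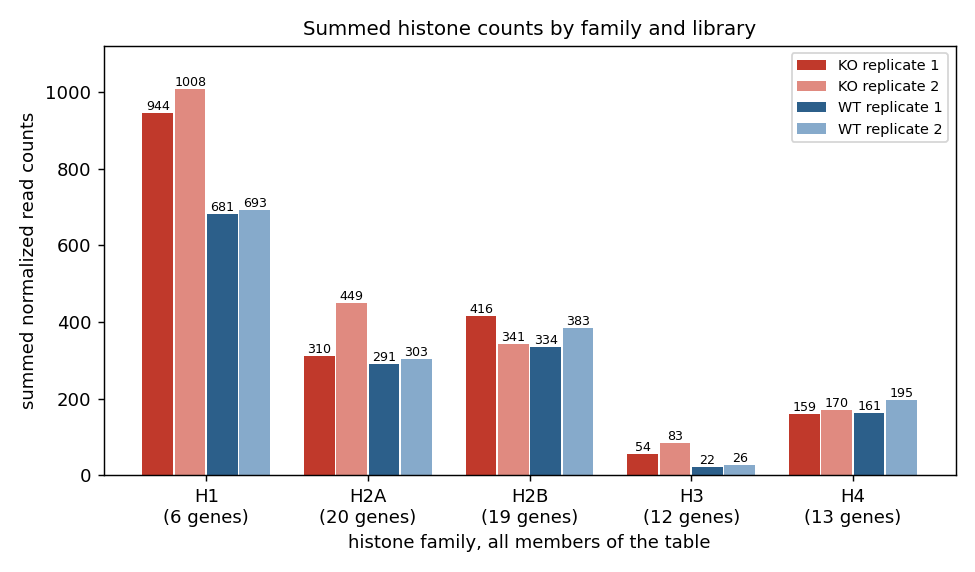
Summed normalized read counts of all members of each histone family in each library, KO bars to the left of WT bars. In H1 and H3 both KO bars stand well above both WT bars (944 and 1008 in KO, against 681 and 693 in WT, for H1). In H2A the KO bars are higher by 1 library mainly (310 and 449 in KO, 291 and 303 in WT), while in H2B and H4 the bars of the groups overlap or lie close together.

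By cluster, the sums moved apart. The 56 Hist1 genes had 1488 and 1613 in KO and 967 and 1118 in WT, a ratio of 1.49. The 10 Hist2 genes, on chromosome 3, had 330 and 406 in KO and 480 and 432 in WT, a ratio of 0.807, so both KO sums were below both WT sums there. All 5 risers were Hist1 genes. None of the 3 tested Hist2 genes passed; their log2 fold changes were negative, but that of Hist2h2ac was 0.31 without KO replicate 1. These sums are a description with no test, and that of Hist2 rests largely on Hist2h2ac and Hist2h2be.

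The members below the filter summed higher in KO. The 36 of them that were above 0 in some library summed to 97 and 187 in KO, against 44 and 70 in WT. Of the 36, 12 (33.3%) were at 0 in both WT libraries and above 0 in KO, beside 16% of all genes above 0 with a mean under 10, and 3 were above 0 in WT only, beside 25.6%. KO lay above WT without overlap in 12, beside 10.2% of such genes, and below it in 1, beside 14%. The KO libraries had fewer estimated reads. The highest of the untested members in their families, beside Hist1h1t, were Hist1h2ai with 10 and 12 in KO and 0 and 8 in WT, Hist1h3c with 0 and 25 in KO and 4 and 10 in WT, and Hist1h4k with 5 and 18 in KO and 1 and 3 in WT. Hist1h4n, the next of the H4 genes, ran the other way in its sums, with 1 and 8 in KO and 4 and 13 in WT. Hist1h3b had 11 and 6 normalized counts in KO and 0 and 0 in WT, and Hist1h2bj, an H2B gene, had 5 and 12 in KO and 0 and 0 in WT. In each, the observed KO sum was 5.67-fold over a WT sum taken at its upper limit of 3 counts. That limit covers counting error in WT only, and the error of the KO sum was left out. At such levels 1 library often decided the sum: Hist1h3h had 0 and 8 in KO, Hist2h3c2 had 8 and 0, and all 4 WT values of these genes were 0.

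H2A and H2B genes often lie head to head with 1 promoter between them. Among the members, 9 pairs of an H2A and an H2B gene had RefSeq windows that overlapped on opposite strands, by between 220 and 279 bases. Hist1h2bc and Hist2h2be, the most abundant H2B genes, had no matched window and could not enter this count. By annotation Hist2h2be (plus strand, from 96221119) lies head to head with Hist2h2ac (minus strand, to 96220880). Hist1h2bc (plus strand, from 23684199) lies likewise beside Hist1h2ac (minus strand, to 23683948), which had 7 and 8 in KO and 4 and 4 in WT. The window of Hist1h2ak is shown because its gene rose while the partner Hist1h2bn, which reads the same stretch from the other strand, was almost unmeasured.
Hist1h2ak, chr13:21753863-21754162, minus strand: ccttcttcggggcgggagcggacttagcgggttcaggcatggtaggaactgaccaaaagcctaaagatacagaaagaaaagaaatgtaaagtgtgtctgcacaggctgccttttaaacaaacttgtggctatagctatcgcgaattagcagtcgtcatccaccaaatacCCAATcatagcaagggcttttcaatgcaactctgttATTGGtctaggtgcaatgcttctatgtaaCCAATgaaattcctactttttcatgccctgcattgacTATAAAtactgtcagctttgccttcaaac
Hist1h2bn had 0 and 4 normalized counts in KO and 1 and 1 in WT, against the 38 and 45 of Hist1h2ak in KO and its 2 and 3 in WT. The partner's transcript is also the less distinct, with 13.6% of its 50-base words found in no other gene, against 43.0% for Hist1h2ak. In another pair, Hist1h2ag had 1 and 2 in KO and 0 and 0 in WT, too few to give a direction, and Hist1h2bj 5 and 12 in KO and 0 and 0 in WT. Hist1h2bg stood above WT in both KO libraries, while its partner Hist1h2ae had 5 and 10 in KO and 5 and 3 in WT.

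Near-identical copies and overlapping annotated genes limit what the table can show of this family. Over the 63 members with a transcript, the median share of 50-base words found in no other annotated gene was 45%. Of the 11 members with less than 10%, 8 were at 0 in all libraries. The 31 members with at least 50% held 79.6% of all histone counts, and 16 of the 21 tested members were among them. Across the 63 members the share and the mean level had a Spearman rho of 0.56, given as a description, since members share sequence and no source used here gives the read length. Hist2h2aa1, Hist2h2aa2, Hist2h3b and Hist2h3c1 had no word of their own and were listed at 0 in all libraries, so their expression cannot be read from the table. Other annotated genes cover 100% of the exons of each, on the same strand for Hist2h3c1 and on the opposite strand for the others. For Hist2h2aa2, other genes also cover 90.3% on the same strand. Words were sought on both strands, so these shares do not measure near-identical copies alone.

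**Figure D4:**
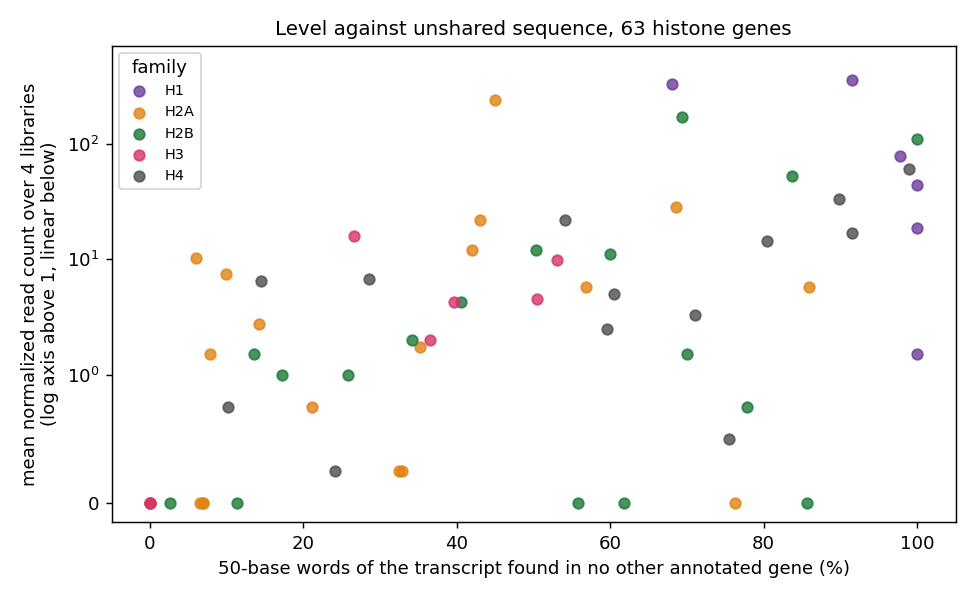
Mean normalized read count over the 4 libraries (log axis above 1, linear below) against the percentage of 50-base words of the transcript that no other annotated gene holds, for 63 histone genes coloured by family. Most genes at 0 crowd at the left edge, and every gene with a mean of at least 50 lies at 45% or more.

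Variant genes outside the clusters, grouped as replication-independent, were measured beside the clustered genes. The mRNA form of each, H2afx among them, was not examined. Of 11 tested, 3 rose and 0 fell (median log2 change 0.37), against 4 and 1 after quantile normalization. Over all tested genes 9.58% were called higher. Cenpa, the H3 variant of the centromere, had 115 and 109 in KO, against 16 and 24 in WT (log2 fold change 2.45, SE 0.35; limma adjusted p = 0.013). H2afz, which encodes H2A.Z, had 288 and 210 in KO, against 115 and 113 in WT (log2 change 1.1, limma adjusted p = 0.026), and H2afj had 249 and 223 in KO, against 109 and 115 in WT (1.07, limma adjusted p = 0.019). In these 3 genes every KO value exceeded every WT value. The genes of H3.3 were far more abundant and did not pass: H3f3b had 2252 and 2265 in KO and 1781 and 1756 in WT (limma adjusted p = 0.057), and H3f3a had 904 and 788 in KO and 1007 and 1193 in WT (limma adjusted p = 0.12). The linker variant gene H1f0, known from cells that have stopped dividing, had 794 and 664 in KO and 491 and 642 in WT and did not pass (limma adjusted p = 0.21). H2afx, whose product is phosphorylated at DNA breaks, had 67 and 70 in KO and 23 and 38 in WT (limma adjusted p = 0.085).

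The machinery that makes and ends histone mRNA gave no call. Of 17 tested genes of histone mRNA processing none passed, with a median log2 fold change of -0.01, but 3 were called lower after quantile normalization, 1 lower with a pseudocount of 5 and with a mean of at least 50, and 1 higher with equal totals. Slbp, which encodes the stem-loop binding protein, had 160 and 171 in KO and 124 and 171 in WT (limma adjusted p = 0.63). Npat, the activator of histone transcription, had 731 and 808 in KO and 1031 and 1054 in WT (log2 fold change -0.44, SE 0.11, limma adjusted p = 0.0515). Lsm10 and Lsm11, subunits of the U7 particle that cuts the mRNA after the loop, were lower in both KO libraries without passing. Lsm10 had 23 and 33 in KO and 55 and 67 in WT (limma adjusted p = 0.095), and Lsm11 had 141 and 191 in KO and 251 and 300 in WT (limma adjusted p = 0.071). Casp8ap2, which encodes the U7 partner FLASH, had 788 and 977 in KO and 816 and 928 in WT. Of 8 factors known to act at histone promoters none passed; E2f1, with 117 and 98 in KO and 17 and 46 in WT, came closest (limma adjusted p = 0.0535). In this list 1 factor was called higher with a pseudocount of 5 and with equal totals.

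Histone chaperones, which carry histones to DNA, gave 3 rises among 22 and no fall (median log2 change 0.06), beside 9.58% of all tested genes called higher. With a pseudocount of 0.5, after quantile normalization and with a mean of at least 50 the count was 2. It was 4 with a pseudocount of 5 and with equal totals. Chaf1a, the large subunit of the chromatin assembly factor that works behind the replication fork, had 117 and 172 in KO, against 40 and 48 in WT (log2 fold change 1.67, SE 0.30, limma adjusted p = 0.021). Hjurp, the chaperone of the centromere variant CENP-A, rose (log2 fold change 0.93, limma adjusted p = 0.010), and so did Mms22l, of a complex that repairs stalled forks (1.48, limma adjusted p = 0.0497). Chaf1b had 25 and 34 in KO and 7 and 4 in WT, and Asf1b, the form tied to dividing cells, 12 and 24 in KO and 2 and 2 in WT. Neither passed (limma adjusted p = 0.053 and 0.074), though their groups did not overlap. Asf1a, the other form, had 353 and 292 in KO and 401 and 353 in WT (limma adjusted p = 0.40).

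Cell cycle genes were higher in the same libraries. Of 27 tested S phase genes 10 rose and none fell (median log2 fold change 0.78). Of 20 tested genes of mitosis 18 rose and none fell (median 2.58), beside 9.58% of all tested genes called higher. Genes low in WT, such as Mcm10, could enter the test through their KO values. Pcna, the clamp of the replication fork, had 418 and 501 in KO and 304 and 365 in WT and did not pass (limma adjusted p = 0.12), while Mcm10 had 54 and 81 in KO, against 6 and 9 in WT (log2 change 3.0, limma adjusted p = 0.016). Mki67, which marks cycling cells, had 1785 and 2680 in KO, against 139 and 359 in WT. The summed S phase counts were 5646 and 6885 in KO and 4126 and 4360 in WT, and the mitosis counts 5646 and 8559 in KO and 813 and 1468 in WT. In both lists and in the histone sum, KO replicate 2 was the highest library and WT replicate 1 the lowest. The macrophage, fibroblast and T and B cell marker sums had the same order, and which cells held the histone mRNA was not tested.

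**Figure D5:**
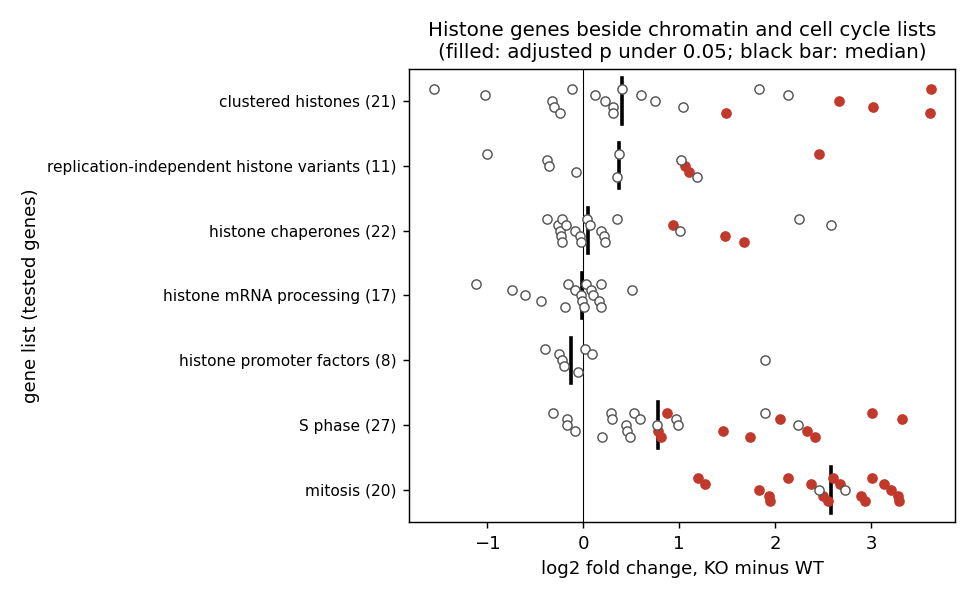
Log2 fold changes (KO minus WT) of tested genes in the clustered histones and in 6 chromatin and cell cycle lists; filled points have an adjusted p under 0.05 and black bars are medians. Mitosis genes lie furthest to the right (median 2.58), the clustered histones spread widely around 0.41, and histone mRNA processing centres at -0.01.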

How the data were processed

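Stranded libraries were prepared from total RNA after ribosomal depletion, per the labels' protocols. Per the submitters' processing notes, DESeq2 1.14.1, featureCounts 1.5.1 of Subread, STAR 2.5.2b and FastQC were used with mm10 or GRCm38, in roles that are not stated. No source used here gives the strand setting, annotation release, read length or treatment of reads that match several places. The authors deposited 1 table of normalized read counts rounded to whole numbers, treated here as a score: 11 of the first 100 whole numbers are skipped in each KO column, so they are not raw counts and no count model was used.

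Genes with a mean of at least 10 were tested in R 4.3.3 with limma 3.58.1 on log2(value + 1), which understates the change of low genes, with group as the single term, an intensity trend and Benjamini-Hochberg adjustment over 15058 genes. SEs are limma's. The named genes were the tested members, the highest untested member of each family, and up to 4 genes of each list plus a fixed set, some of them left out for length. Every other untested member, Hist1h3b and the partners in promoter pairs among them, was named after its values were seen. The members and lists were chosen with earlier results of these data known. List genes were matched by symbol or identifier. Sequences are from GENCODE M21 and RefSeq (GRCm38.p6). For shared sequence, each 50-base word of a member's transcripts was sought in all other GENCODE genes on both strands. The alternatives were other pseudocounts, filters and scalings, no trend, a replicate block and leaving out each library.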

Additional observations from a re-analysis of the deposited data

How the results depend on the processing

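The histone calls depended on the setting. Against 5 higher and 0 lower members, 0 were higher without the filter on low counts and without the intensity trend. After quantile normalization 3 were higher and 1 was lower, Hist2h2be. With a mean of at least 50, 8 members were tested and 1 was higher. That was Hist1h1d, the only riser among those 8 (limma adjusted p = 0.022). Over all genes, 1443 were higher and 1009 lower, against 0 and 0 without the filter (5472 at an unadjusted p under 0.05) and without the trend (4274). Leaving out 1 library gave between 0 and 587 higher and between 0 and 153 lower genes, and 0 histone calls in every case (5 to 7 higher members at an unadjusted p under 0.05). The median log2 fold change of the tested members kept its sign, from 0.22 with a mean of at least 50 to 0.75 without a filter. The log2 ratio of summed histone counts, 0.35, was 0.199 after quantile normalization, 0.43 with equal totals, and from 0.29 to 0.41 with 1 library left out. With the replicate number as a block, 5 members were higher and 1 lower (Hist2h2be), 1 promoter factor was higher, 1 processing gene and 1 replication-independent variant were lower, and 1823 and 1213 genes were called in all; the labels do not say that the numbers pair the samples (correlation of deviations 0.12). Low counts limit the 49 untested members. The 13 at 0 in all libraries had a median unshared share of 6.93%, with a range from 0% to 85.7%. The value of 85.7% belongs to the identifier called Hist2h2bb, which M21 lists as a long noncoding RNA gene. Whether shared sequence lowered their counts was not tested.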

Other observations

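Gene names differ between the table and GENCODE M21 for 3 members. The identifiers that the table calls Hist2h2aa1 and Hist2h2aa2 carry each other's name in M21, and the identifier it calls Hist2h2bb is Gm42743 there. M21 types Gm42743 as a long noncoding RNA gene, and its transcript is counted among the 63 members and the 22 without a loop. All 3 were listed at 0 in all libraries. A further 7 members, among them Hist1h2bm (0 and 6 normalized counts in KO, 6 and 0 in WT) and Hist1h3d (3 and 8 in KO, 0 and 3 in WT), have no transcript in M21 under their identifier and were placed by RefSeq alone.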
